A study of Mus musculus with 9 samples.

Results

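Transcript levels 96 h after cells first met lipopolysaccharide (LPS, an endotoxin from the outer membrane of Gram-negative bacteria), in a pulse of 6 h, were compared with those of unstimulated cells in m-ICcl2, an epithelial cell line. The comparison used 6 of the 9 Affymetrix arrays of the series, 3 titled as pulsed and then kept in LPS-free medium and 3 titled as unstimulated, and it covered the 9431 genes that reached log2 4 (log2 of the deposited intensity) on 3 arrays or more, of 18193 genes with a probe set. The m-ICcl2 line was derived from fetal small intestine of C57BL/6 mice and carries, in every group, a transgene for SV40 large T antigen, an oncoprotein that binds the RB and p53 proteins. The labels do not name the promoter of that transgene. The pulsed cells received LPS of Escherichia coli at 100 ng/mL for 6 h and then medium without LPS for 90 h, and the submitters call them tolerant. The other 3 arrays were from cells at 6 h of LPS, and they entered the estimate of spread and are given as reference values. The labels give the unstimulated cells no time in culture, so the earlier LPS pulse and the days in culture cannot be told apart. Replicates are labelled biological without a statement that they were separate cultures, so p-values measure the spread between these arrays, which may be technical.

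LPS is recognised by Toll-like receptor 4 with its partners MD-2 and CD14, and the adaptor MyD88 passes the signal to NF-kappa-B and MAP kinases, which induce chemokines and feedback inhibitors. After a first exposure, many cell types respond less to the next one, a state called endotoxin tolerance that is also known for intestinal epithelium, a tissue in steady contact with bacteria. Per the labels the tolerant cells received no new LPS before harvest, so the values describe their state after the pulse and not a response to a further stimulus.

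The arrays differed in total more between than within the conditions. The root-mean-square log2 difference over the tested genes was 0.73 to 1.07 between an unstimulated and a tolerant array, 0.30 to 0.68 among unstimulated arrays and 0.21 to 0.59 among tolerant arrays, and in both conditions the larger of these within-group distances involved replicate 1. The replicate 1 arrays also differed in signs of RNA quality: the actin probe sets of the 3′ and 5′ ends differed by 0.40 to 0.72 log2 on them against 1.02 to 1.38 on the other 6, and the 18S ribosomal RNA probe set read 7.27 to 10.24 against 3.38 to 5.76. The part of these signs in the results was not tested. Of 9 epithelial markers, the keratin genes Krt8 (log2 12.87 to 13.41 in unstimulated, 12.75 to 13.25 in tolerant cells) and Krt18 and the villin gene Vil1 (8.25 to 8.29 in unstimulated cells) were high, whereas Cdh1, Krt19, Cldn7 and Esrp1 lay below log2 4 on all 6 arrays. All listed markers of enteroendocrine, tuft, endothelial and erythroid cells that the array holds lay below log2 4 on all 6 arrays, as did 12 of 14 fibroblast markers, 14 of 19 macrophage and leukocyte markers, 6 of 8 goblet and 4 of 5 Paneth cell markers. Among the leukocyte markers Ptprc, Adgre1, Itgam, Lyz2 and Tyrobp were at the low end, but Cd14 read 7.38 to 7.70 in unstimulated and 7.85 to 8.16 in tolerant cells. The mesenchymal marker Vim was as high as Krt8, at 13.35 to 13.51 in unstimulated and 13.23 to 13.43 in tolerant cells. S100a4, of the same list, read 6.40 to 7.36 and 7.21 to 7.30, and the goblet cell marker Fcgbp 6.78 to 6.92 and 6.79 to 7.18. In RNA from whole cultures, fewer cells of a kind and less RNA per cell cannot be told apart.

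In tolerant cells 1318 genes were higher and 1152 lower (limma, Benjamini-Hochberg adjusted p under 0.05), which is 14.0% and 12.2% of the genes tested. With the replicate number as a block these counts were 2142 (22.7%) and 2444 (25.9%), and they held every gene called without the block. The counts of the gene lists below are to be read beside these shares, each without and with the block. The median change was 1.14 among the rises and -1.0 among the falls on the log2 scale, the smallest called changes were 0.48 and -0.43, and the median over all tested genes was -0.07. Rises reached further than falls: 818 genes rose and 576 fell by at least 2-fold, 141 and 51 by at least 4-fold, and 25 and 5 by at least 8-fold. The tolerant arrays lay wholly above the unstimulated arrays for 2133 genes (22.6%) and wholly below for 2310 (24.5%). Every called gene had the same direction in all 3 same-numbered pairs, a property shared by 7429 of all tested genes. The number of calls rested in part on single arrays, with 752 higher and 648 lower without tolerant replicate 2, 846 and 697 without tolerant replicate 3, and 809 and 706 without unstimulated replicate 2.

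**Figure D1:**
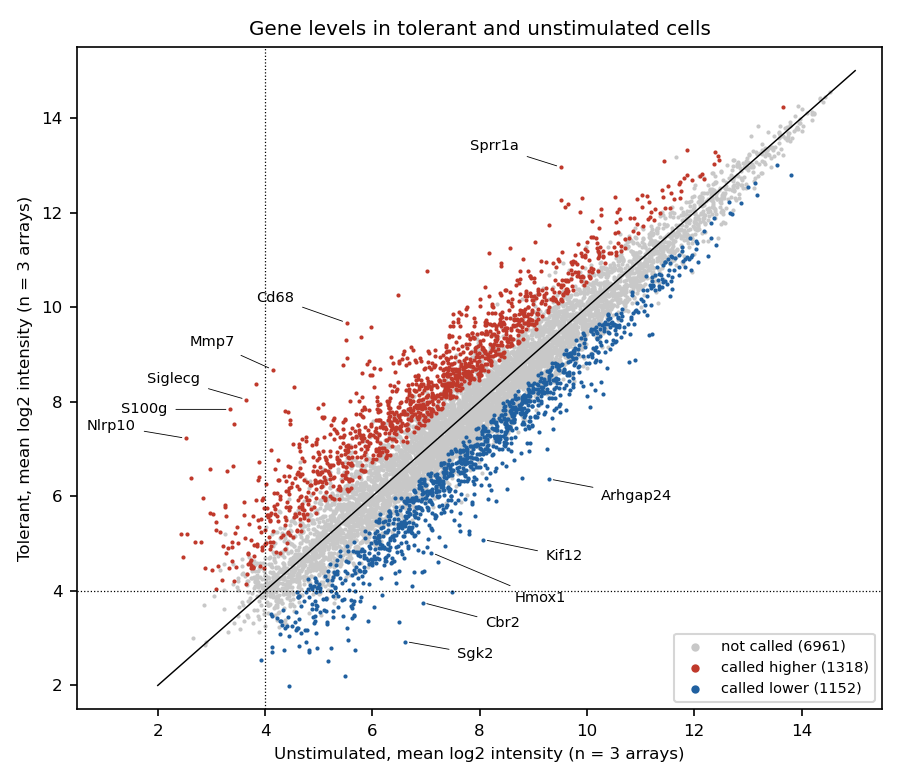
Mean log2 intensity of each tested gene in unstimulated (x axis) and tolerant cells (y axis), with 3 arrays per mean; red points are the 1318 genes called higher, blue points the 1152 called lower and grey points all others. The solid line marks equal levels and the dotted lines mark log2 4, the low end of measurement, and red points extend further from the line than blue ones.

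Signal appeared above the low end for some genes and disappeared for others. Below log2 4 on all 3 unstimulated arrays and at or above it on all 3 tolerant arrays were 58 genes, of which 53 were called. Of these 53 called genes 37 were also below log2 4 on all 3 arrays at 6 h of LPS. These 37 thus passed the level filter through their tolerant arrays alone. The opposite pattern held for 72 genes, 60 of them called, and 43 of the 60 called genes were still at log2 4 or more on all 3 arrays at 6 h. The fold of such genes is a lower bound and sets the mean of the higher group against log2 4.

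The largest rises among genes with all 6 arrays in the measurable range came from genes of several unrelated functions. Cd68, a lysosomal membrane glycoprotein gene best known as a macrophage marker, read 5.52, 5.65 and 5.38 in unstimulated replicates 1, 2 and 3 and 9.73, 9.67 and 9.61 in the tolerant ones (log2 intensity), against 5.23, 4.85 and 5.25 at 6 h. The lowest tolerant array thus stood about 4 log2 units above the highest unstimulated one, and the 6 h arrays did not share the rise. Siglecg, a gene of a sialic-acid-binding receptor also counted as a leukocyte marker, read 3.66, 3.45 and 3.83 and then 8.70, 7.78 and 7.66. It was at least 16.5-fold higher. Its 6 h arrays read 3.72, 3.48 and 3.52, and it passed the level filter through its tolerant arrays alone. The leukocyte genes Csf1r and Spi1, a growth-factor receptor and a transcription factor, fell instead. Spi1 lost its call without tolerant replicate 3 (adjusted p up to 0.0692). Csf1r read 10.10, 11.06 and 11.20 in unstimulated and 7.97, 9.25 and 9.30 in tolerant cells, a fall of 3.85-fold (adjusted p = 0.0232, or 5.85e-05 with the block), and the call was lost without unstimulated replicate 2 or 3 or tolerant replicate 1 (adjusted p up to 0.0815). The linear intensities of the leukocyte list summed to 1472 to 2685 in unstimulated and 1829 to 2022 in tolerant cells, so these ranges overlapped. Such a sum follows its highest genes, and in it the fall of Csf1r and the rise of Cd68 offset each other. It is thus no measure of leukocyte content, and a part of other cells in the change of Cd68 was not tested.

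The other large rises included genes of differentiated and barrier epithelia. Sprr1a, a cornified-envelope precursor gene, rose from 9.38, 9.70 and 9.45 to 13.14, 13.03 and 12.71, which is 10.9-fold. Muc20, the gene of a membrane-bound mucin, rose 13.7-fold, from 4.67, 4.21 and 4.72 to 8.75, 8.14 and 8.05. St8sia6, a sialyltransferase gene, rose 13.7-fold and by 3.51 to 3.77 log2 over its 3 probe sets. Prkg2, which encodes a cyclic-GMP-dependent kinase of intestinal epithelium, read 6.24, 7.19 and 7.61 against 10.57 or more on every tolerant array and rose 13.5-fold. Rdh12, a retinol dehydrogenase gene, rose 10.2-fold, the ligand gene Wnt7a 7.36-fold, and Slc5a3, the myo-inositol carrier gene, 7.84-fold. All of these had tolerant arrays above every unstimulated array, which the rule for naming them required. Tnnt2, the cardiac troponin T gene, rose 12.1-fold, Fam126b by 3.58 log2 and Smc5, a chromosome-maintenance gene, 7.52-fold, although the other probe set of Smc5 rose by 1.40 log2 only.

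Some of the genes that crossed the low end encode proteins of enterocytes. S100g, the gene of the calcium-binding protein calbindin-D9k of absorptive cells, read 3.29, 3.38 and 3.38 in unstimulated and 6.97, 8.10 and 8.44 in tolerant cells, at least 14.3-fold higher. Anxa13, an annexin gene of the intestine, Prap1, a gene of a secreted protein of proline-rich composition, and Eps8l3, a member of the Eps8 family, were higher by at least 5.93-fold, 5.76-fold and 5.24-fold. Slc5a10, a sodium-coupled sugar carrier gene, was at least 11.6-fold higher and Nlrp10, of the NLR family, at least 9.36-fold. All of these lay below log2 4 on the 6 h arrays as well, and they passed the level filter through their tolerant arrays alone. Ccl2, the monocyte chemokine gene, was the exception among the bounded rises named by the rule, since its 6 h arrays already read 7.41, 7.80 and 7.78.

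The largest falls included genes of the cilium, of carriers and of lipid handling. Arhgap24, a RAC-directed GTPase-activating protein gene, read 9.72, 9.07 and 9.10 in unstimulated and 6.15, 6.52 and 6.43 in tolerant cells, a fall of 7.62-fold. Rnf183, a ubiquitin ligase gene, fell 6.09-fold with an SD of 0.07 in the unstimulated and 0.12 in the tolerant group. Both had 6 h arrays above all tolerant arrays. Dgat2, which makes triglycerides, fell 5.3-fold, Bdh2, a ketone-body and iron-linked dehydrogenase gene, 5.31-fold, Slc37a4, the glucose-6-phosphate carrier gene, 4.81-fold, Slc46a1, the intestinal folate carrier gene, 5.15-fold, and Xylb, a xylulokinase gene, 5.14-fold. Aven, a gene of an apoptosis inhibitor, fell 6.09-fold and Tmem254a 5.78-fold. Slc4a2, the chloride-bicarbonate exchanger gene, read 9.01, 7.10 and 7.29 and then 5.91, 4.95 and 4.94, and its call was lost without unstimulated replicate 1 or tolerant replicate 2 or 3 (adjusted p up to 0.0903). Phyhipl lost its call without unstimulated replicate 2 or 3 or tolerant replicate 1 or 2 (adjusted p up to 0.103).

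The bounded falls were smaller. Sgk2, a serum- and glucocorticoid-regulated kinase gene, went from 6.47, 6.62 and 6.76 to 3.14, 3.17 and 2.47, at least 6.12-fold lower, while its 6 h arrays read 5.55, 6.38 and 6.57. Tspyl4 was at least 5.63-fold lower, Cideb, a lipid-droplet and lipoprotein gene, 4.1-fold, Pcolce2, a collagen-processing enhancer gene, 3.19-fold, and Suox, the sulfite oxidase gene, 3.17-fold. Fam120c and Zc4h2 were at least 3.15-fold and 3.07-fold lower.

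**Figure D2:**
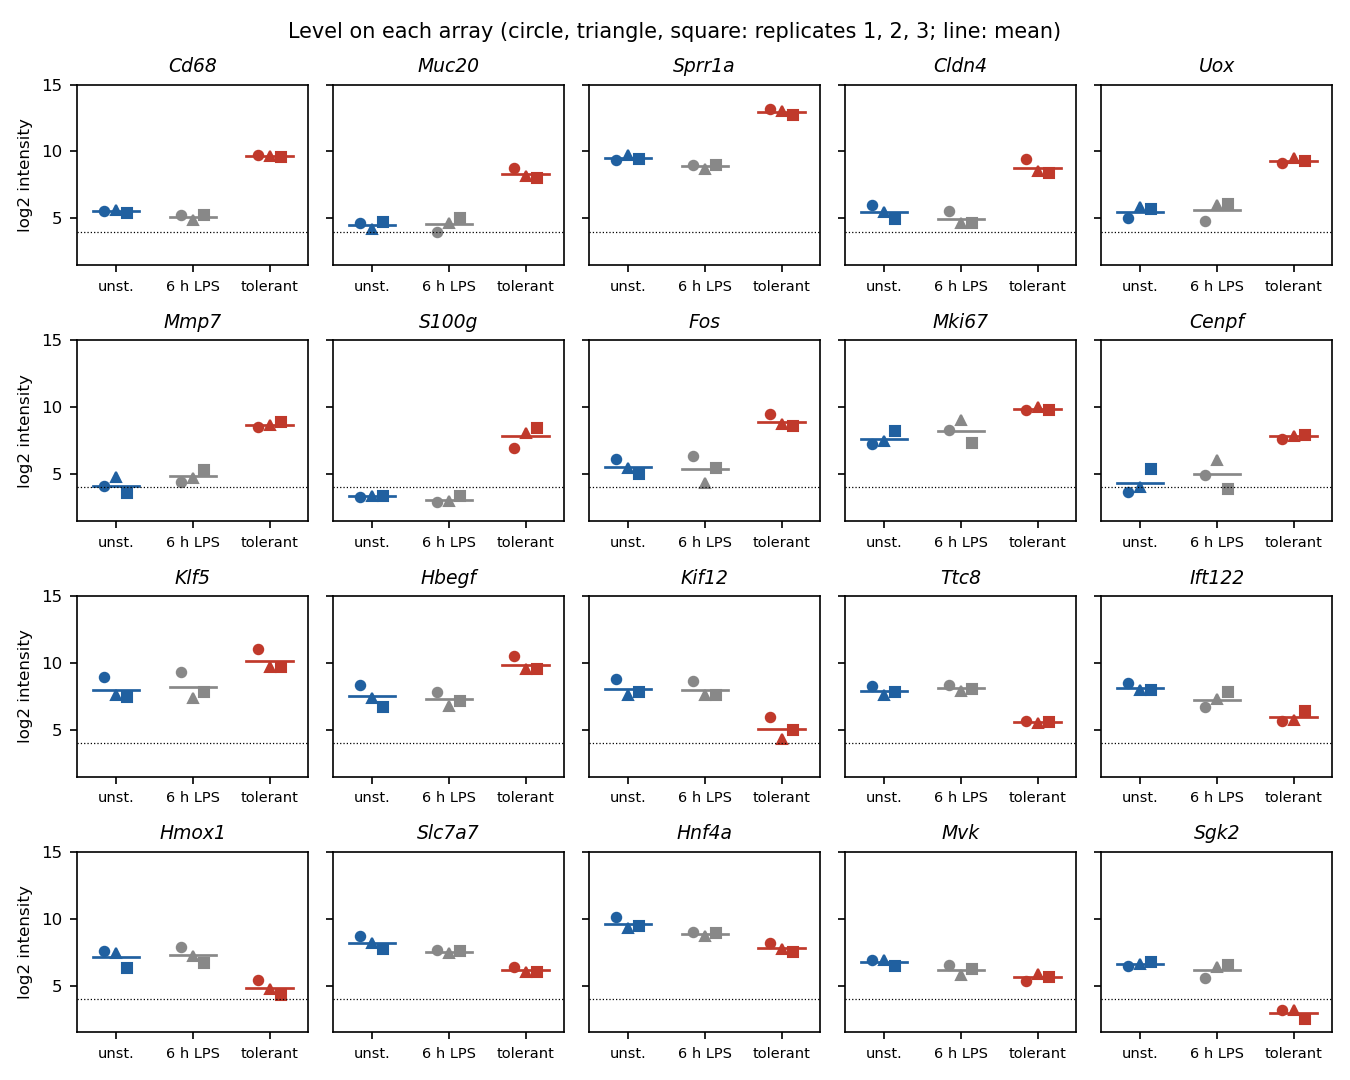
Log2 intensity on every array for 20 genes, 1 panel per gene, in unstimulated cells (blue), at 6 h of LPS (grey) and in tolerant cells (red); circles, triangles and squares are replicates 1, 2 and 3 and the line is the mean of 3 arrays. In every panel the tolerant arrays lie apart from the unstimulated arrays, and the dotted line marks log2 4.

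Genes of mitosis rose together, whereas genes of DNA replication mostly did not. Progress through the cell cycle uses successive gene sets: E2F factors drive the genes of the G1/S transition and DNA synthesis, and those of chromosome segregation carry a promoter element, the cell cycle genes homology region (CHR), through which the MuvB complex acts, as a repressor within DREAM in resting cells and as an activator with B-MYB and FOXM1 in dividing cells. Of 44 measured genes of mitosis and chromosome segregation 35 rose and none fell, against 14.0% and 12.2% of all tested genes. With the block 41 rose and none fell, against 22.7% and 25.9%. With 1 array left out 29 to 37 rose. The list's median log2 change was 1.37. Of 40 measured genes of DNA replication and G1/S 4 rose and 1 fell, 5 and 6 with the block, and 2 fell without 6 h replicate 1 or tolerant replicate 1, with a median of -0.06 beside -0.07 for all tested genes.

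The centromere and spindle genes led the mitotic rises. Cenpf, a kinetochore gene, read 3.69, 4.01 and 5.40 in unstimulated and 7.64, 7.87 and 7.93 in tolerant cells. Nusap1, of a spindle-associated protein, read 5.41, 5.76 and 6.25 and then 8.31, 8.77 and 8.78, a rise of 7.02-fold (adjusted p = 0.000225). Cenpe, the kinetochore motor gene, rose 5.57-fold, and Aspm, a spindle-pole gene, 8.81-fold, with rises of 1.55 to 3.14 log2 over its 4 probe sets. Tolerant arrays lay above all unstimulated arrays for 38 of the 44 genes, where 22.6% of all tested genes did. At 6 h the means of these genes lay between the groups, 4.99 for Cenpf, 6.66 for Nusap1 and 5.98 for Aspm, with 6 h arrays within or above the unstimulated range for Cenpf and above it for Nusap1. Bub3, a checkpoint gene chosen after its value was seen, had the only negative change of the list, -0.23 (adjusted p = 0.475).

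The called replication and G1/S genes included regulators of the G1/S transition and a polymerase gene. Cdk6, the D-cyclin-dependent kinase gene, read 9.61, 9.60 and 9.68 and then 10.65, 10.53 and 10.53, a rise of 1.92-fold, and Rb1, the retinoblastoma gene whose product large T antigen binds, rose 2.44-fold. Ccne1, the cyclin E1 gene, fell from 6.17, 5.86 and 6.13 to 4.68, 4.71 and 5.30, which is 2.23-fold. Pola1, a DNA polymerase alpha gene, was 3.06-fold higher (adjusted p = 0.0349), a call lost without unstimulated replicate 1 or 2 or tolerant replicate 1, 2 or 3 (adjusted p up to 0.112). Pcna, the sliding-clamp gene, and Mcm2, a helicase gene, both chosen after their values were seen, differed by 0.05 and 0.02 log2 (adjusted p = 0.835 and 0.977).

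Promoter sequences of the RefSeq table (build GRCm38.p6, 250 bases before to 50 after the first listed start) were found for 7776 of the 9431 tested genes, among them 37 mitosis and 32 replication genes. The CHR letters TTTGAA, on either strand, stood in 75.7% of the mitosis promoters, 15.6% of the replication promoters and 11.3% of all tested promoters. The E2F letters TTTCCCGC or TTTGGCGC, on either strand, stood in 5.41%, 34.4% and 3.47%, so the 2 lists differed in both elements. The CCAAT letters, on either strand, stood in 73.0%, 56.2% and 38.8%. Over all called genes the CHR letters were in 16% of promoters of higher and 9.95% of lower genes. Within the mitosis list the presence of the letters did not separate the changes: 21 of 28 genes with them rose, with a median of 1.38, and 8 of 9 without them, with a median of 1.39. A match is a description of letters and not evidence of binding.

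The following stretches around the CHR letters, in capitals, are shown as examples of mitosis genes that rose and have the element upstream of the start. They were chosen after their values were seen. All are written 5′ to 3′ on the gene's strand, from chr7:135716451-135716525 (Mki67, minus strand), chr4:52439046-52439111 (Smc2, plus strand), chr11:99024200-99024242 (Top2a, minus strand), chr19:37376333-37376381 (Kif11, plus strand), chr9:70421686-70421751 (Ccnb2, minus strand).
Mki67: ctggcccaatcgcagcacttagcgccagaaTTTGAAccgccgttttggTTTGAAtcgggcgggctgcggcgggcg
Smc2: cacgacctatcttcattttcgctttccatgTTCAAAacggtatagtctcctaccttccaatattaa
Top2a: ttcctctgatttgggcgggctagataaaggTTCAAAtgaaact
Kif11: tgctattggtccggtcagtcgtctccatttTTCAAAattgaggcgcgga
Ccnb2: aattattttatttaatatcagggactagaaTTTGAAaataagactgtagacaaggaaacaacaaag
Mki67, the gene of the proliferation antigen Ki-67, held the letters at positions -116 and -98 from the start, and read 7.26, 7.48 and 8.20 in unstimulated and 9.78, 9.98 and 9.81 in tolerant cells. In Smc2, a condensin gene, Top2a, the topoisomerase II alpha gene, and Kif11, a spindle motor gene, the letters stand on the opposite strand and read TTCAAA, at positions -145, -23 and -19. Smc2 rose 4.09-fold, Top2a 3.74-fold and Kif11 2.46-fold. Ccnb2, the cyclin B2 gene, has the letters at position -167 and rose 2.24-fold, from 8.28, 8.18 and 8.19 to 9.56, 9.33 and 9.25.

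For comparison, stretches around the E2F letters, in capitals, are shown from replication genes that did not rise, chr8:75109330-75109397 (Mcm5, plus strand), chr1:128359715-128359782 (Mcm6, minus strand), chr10:128705154-128705221 (Cdk2, minus strand).
Mcm5: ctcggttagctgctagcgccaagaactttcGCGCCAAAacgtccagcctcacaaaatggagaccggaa
Mcm6: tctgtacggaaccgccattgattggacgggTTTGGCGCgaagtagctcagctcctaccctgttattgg
Cdk2: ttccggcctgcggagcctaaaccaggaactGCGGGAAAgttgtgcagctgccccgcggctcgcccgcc
Mcm5 and Mcm6 encode subunits of the replicative helicase, and Cdk2 the kinase partner of cyclin E. Mcm6 read 11.25, 10.88 and 10.77 in unstimulated and 11.10, 10.74 and 10.63 in tolerant cells, overlapping ranges (adjusted p = 0.626). Cdk2 differed by 0.18 log2 (adjusted p = 0.479), and Mcm5 by -0.73 (adjusted p = 0.103, or 0.00753 with the block).

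Some immediate-early transcription factors, which growth factors and stress induce within minutes to hours, were higher 90 h after LPS had been removed. Of 21 measured members of the AP-1 and immediate-early list, 11 rose and none fell (14 and 0 with the block), with a median log2 change of 0.99, and 1 of them, Egr2, was measured only through its tolerant arrays. Fos read 6.11, 5.46 and 5.04 in unstimulated, 6.35, 4.36 and 5.46 at 6 h and 9.49, 8.71 and 8.56 in tolerant cells. The 6 h arrays thus overlapped the unstimulated ones while all tolerant arrays lay above both. Egr1, a zinc-finger factor gene, read 8.28, 8.58 and 8.35 and then 10.88, 10.91 and 10.78. Maff, a small MAF factor gene, rose 5.44-fold and Btg2, an antiproliferative gene, 4.39-fold. The rise was not shared by all AP-1 subunits: Jun and Jund, chosen after their values were seen, differed by 0.21 and -0.35 log2 (adjusted p = 0.755 and 0.506).

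Kruppel-like factors are zinc-finger regulators that in the gut include Klf5 of proliferating crypts and Klf4 of differentiated villi. Of 12 measured 7 rose and 1 fell (8 and 2 with the block), with a median of 1.07. Klf5 read 8.94, 7.64 and 7.45 and then 11.07, 9.71 and 9.71, with replicate 1 about 1.3 log2 units above the others in both groups. Its rise of 4.45-fold passed the test (adjusted p = 0.0294, or 6.8e-05 with the block), but the call was lost when unstimulated replicate 2 or 3 or any tolerant array was left out (adjusted p up to 0.0989). Klf6 rose 2.73-fold and by 0.91 to 1.81 log2 over its 5 probe sets. Klf7 rose 2.59-fold (lost without unstimulated replicate 2, adjusted p = 0.0581) and Klf4 2.3-fold, from 7.94, 7.96 and 8.14 to 9.17, 9.23 and 9.24. Klf2 was the only called fall, at least 2.41-fold, from 5.50, 5.04 and 5.27 to arrays below log2 4.

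The MAP kinase pathway is held in check by dual-specificity phosphatases and Sprouty-related proteins that it induces itself. Of 14 measured genes of this feedback 6 rose and none fell, and 10 and 1 with the block. Dusp4 read 7.49, 7.79 and 7.03 and then 9.38, 9.53 and 9.31, a rise of 3.92-fold. Dusp6, the ERK phosphatase gene, rose 2.8-fold and Spred1 2.27-fold with agreement of its 6 probe sets (1.10 to 1.45 log2). Dusp5 was 5.25-fold higher with 1 unstimulated array below log2 4, and lost its call without unstimulated replicate 3 or tolerant replicate 1 or 2 (adjusted p up to 0.0792). Upstream of the pathway, 3 of 8 measured EGF ligand and receptor genes rose and none fell. Hbegf, the heparin-binding ligand gene, read 8.38, 7.41 and 6.71 and then 10.51, 9.56 and 9.51, 5.13-fold higher. Egfr, the receptor gene, rose 2.34-fold, although its 4 probe sets ranged from 0.23 to 1.23 log2.

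YAP and TEAD are the effectors of the Hippo pathway in cell spreading and wound repair. Of 18 measured genes of the list, which holds their targets and components of the pathway, 7 rose and 1 fell (12 and 3 with the block), with 4 rises and no fall without tolerant replicate 2 or 3, no fall without unstimulated replicate 1 and 2 falls without 6 h replicate 1. Ankrd1, a nuclear ankyrin-repeat gene, read 8.11, 8.92 and 8.63 in unstimulated and 11.14, 11.31 and 11.28 in tolerant cells, a rise of 6.44-fold. Ccn2, the connective tissue growth factor gene, read 9.94, 9.68 and 9.16, then 9.03, 8.76 and 9.03 at 6 h, and 12.41, 12.01 and 11.90 in tolerant cells. Ccn1, its relative, rose 3.11-fold and by 1.63 to 2.26 log2 over 4 probe sets, and F3, the tissue factor gene, 2.78-fold.

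Of 27 measured genes of the TGF-beta and BMP pathway 9 rose and none fell (12 and 1 with the block), with a median of 0.40, and 4 rose without unstimulated replicate 2 or tolerant replicate 2. Id1 and Id3, the inhibitor-of-differentiation genes that BMP signals induce, were higher by 2.82-fold and by at least 1.94-fold, the latter measured only through its tolerant arrays, as was Tgfb2. Tgif1, a repressor of SMAD targets, rose 2.88-fold, from 8.49, 8.36 and 7.43 to 9.98, 9.62 and 9.26. The receptor gene Acvr2a was 2.63-fold higher, with 0.21 log2 on its other probe set and a call lost without unstimulated replicate 1 or 2 or tolerant replicate 2 or 3 (adjusted p up to 0.0856).

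Wnt, Notch and enterocyte regulators had few calls in number, 2 or 3 genes in each direction. The shares higher and lower were 10.5% and 10.5% for the Wnt, 27.3% and 18.2% for the Notch and 18.2% and 18.2% for the enterocyte list. Of all tested genes 14.0% were higher and 12.2% lower. Of 19 measured Wnt and stem-cell genes 2 rose and 2 fell (5 and 2 with the block), and 1 rose when any unstimulated array, 6 h replicate 2 or tolerant replicate 2 or 3 was left out. Sox9, a crypt factor gene, rose 2.15-fold from 6.19, 6.36 and 6.13 to 7.41, 7.56 and 7.04, and Tcf7l2, which encodes the nuclear Wnt effector of the crypt, fell 2.12-fold, a call lost without unstimulated replicate 2 or tolerant replicate 1 or 3 (adjusted p up to 0.072). In the Notch pathway 3 of 11 rose and 2 fell (3 and 3 with the block), and none fell without unstimulated replicate 1 or tolerant replicate 2 or 3. Nrarp, a Notch feedback gene, read 4.04, 3.83 and 3.74 and then 6.67, 6.01 and 6.34, although its other probe set rose by 0.98 log2. The ligand gene Jag2 rose 2.51-fold and Rbpj, the DNA-binding partner of Notch, 2.28-fold. Of 11 measured enterocyte transcription factors 2 rose, Klf5 and Klf4, and 2 fell (5 and 4 with the block). The rises numbered 1 without unstimulated replicate 2 or 3 or any tolerant array, and the falls 1 without unstimulated replicate 2 or 3 or tolerant replicate 2. Hnf4a, a nuclear receptor that maintains enterocyte identity, read 10.11, 9.29 and 9.46, then 9.02, 8.71 and 8.91 at 6 h and 8.19, 7.73 and 7.53 in tolerant cells, all 4 of its probe sets being lower in tolerant than in unstimulated cells. Nr1h4, the bile acid receptor gene, was 1.94-fold lower, a call lost without unstimulated replicate 2 or 3 or tolerant replicate 2 (adjusted p up to 0.0569).

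Enterocyte surface genes changed one by one. Of 13 measured brush border and enterocyte genes 3 rose and 1 fell (5 and 1 with the block), with a median of 0.08. The shares were 23.1% and 7.69%, beside 14.0% higher and 12.2% lower of all tested genes. Cdh17, an intestinal cadherin gene, read 5.19, 5.74 and 6.17 against 7.38, 8.02 and 7.82. Mep1a, which encodes the brush border protease meprin alpha, fell from 7.69, 7.52 and 7.63 to 6.15, 6.40 and 6.22. Myo7b, the gene of a microvillus-tip myosin, rose 1.93-fold. A further 25 listed genes of this group did not reach the level minimum.

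Among 27 measured genes of tight and adherens junctions 8 rose and 1 fell, and 11 and 2 with the block. Cldn4, a sealing claudin gene, read 5.96, 5.49 and 4.93 in unstimulated, 5.52, 4.62 and 4.62 at 6 h and 9.40, 8.57 and 8.38 in tolerant cells. Tjp1, the ZO-1 scaffold gene, read 9.31, 9.50 and 9.65 and then 10.94, 11.06 and 10.93, and Afdn, the afadin gene, rose by 1.17 log2. Epcam, an epithelial adhesion gene, read 2.92, 3.24 and 2.93 and then 5.31, 6.07 and 5.53, and entered the test only through its tolerant arrays. Among 13 measured keratins and cornified-envelope genes 4 rose and 1 fell, with 2 rises without tolerant replicate 2 or 3. Sprr1b, beside Sprr1a, was at least 2-fold higher and measured only through its tolerant arrays. Krt20 rose 1.69-fold (lost without tolerant replicate 2 or 3, adjusted p up to 0.0593). Krt18 rose 1.58-fold, a call lost without unstimulated replicate 2 or 3 or 6 h replicate 2 or 3 or tolerant replicate 1, 2 or 3 (adjusted p up to 0.136), and Krt10 fell 1.78-fold, a call lost without unstimulated replicate 1, 2 or 3 or 6 h replicate 2 or tolerant replicate 1, 2 or 3 (adjusted p up to 0.127).

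Matrix and protease genes had more rises than falls. The shares were 23.3% higher and 10% lower in the matrix list and 35.7% and 7.14% in the protease list, beside 14.0% and 12.2% of all tested genes. Of 30 measured integrin, laminin, collagen and matrix genes 7 rose and 3 fell, and 14 and 4 with the block, and the falls numbered 1 without tolerant replicate 2 or 3. Col6a1, a collagen VI gene, read 5.22, 5.16 and 5.33 and then 7.94, 7.40 and 7.19, a rise of 4.84-fold. Lamc1, a laminin chain gene, was 3.36-fold higher (0.76 log2 on its other probe set). Itgb6, the integrin subunit gene of injured epithelium, was 3.37-fold higher with a call lost without unstimulated replicate 2 or 3 or tolerant replicate 1 or 2 (adjusted p up to 0.0842). Tnc, the tenascin gene, was at least 2.16-fold higher and measured only through its tolerant arrays. Of 14 measured protease genes 5 rose and 1 fell (8 and 2 with the block), with 2 to 3 rises when unstimulated replicate 2 or any tolerant array was left out. Mmp7, the matrilysin gene that Paneth cells also express, read 4.11, 4.75 and 3.56 and then 8.48, 8.64 and 8.92. The 4 other Paneth markers on the array, Lyz1, Ang4, Itln1 and Pla2g2a, read below log2 4 on all 6 arrays. Plat, the tissue plasminogen activator gene, read 10.09, 9.54 and 9.34 and then 12.50, 12.08 and 11.97, and Adamts1 fell 1.7-fold. In the mucosal defence list 3 of 6 measured genes rose, Muc20, Muc4 and Lcn2, and 25 others were below the level minimum. Lcn2, the siderophore-binding lipocalin gene, read 12.06, 11.07 and 11.17 in unstimulated, 13.23, 12.70 and 12.46 at 6 h and 13.40, 12.86 and 12.99 in tolerant cells, so its tolerant and 6 h arrays overlapped.

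**Figure D3:**
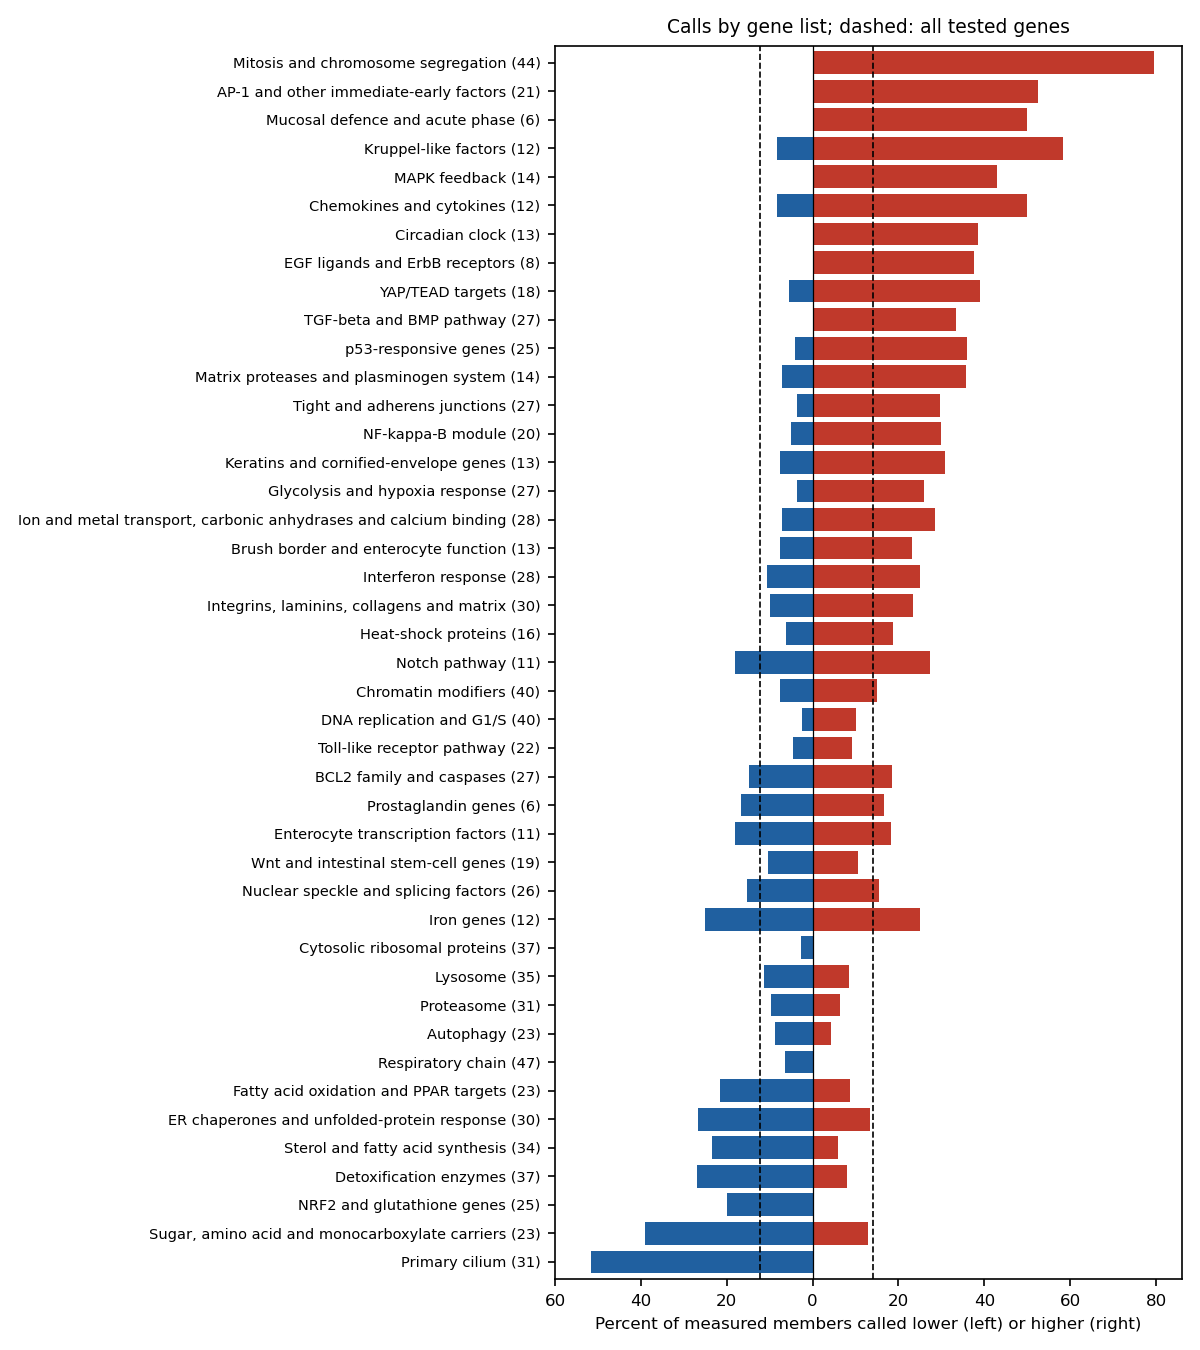
Percent of the measured members of each of 43 gene lists that were called lower (blue, to the left) or higher (red, to the right) in tolerant cells, with the number measured in brackets. The dashed lines mark the 12.2% lower and 14.0% higher over all tested genes; mitosis genes stand at the top with 35 of 44 higher and cilium genes at the bottom with 16 of 31 lower.

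Inflammatory genes were partly above their unstimulated level 90 h after the pulse. Of 12 measured chemokines and cytokines 6 rose and 1 fell, the same numbers with the block, with a median of 0.98, and Il33 was measured only through its tolerant arrays, while 26 listed genes were below the level minimum. The individual courses differed. Cxcl1, a neutrophil chemokine gene, read 7.38, 7.62 and 7.36 in unstimulated, 11.65, 11.33 and 11.71 at 6 h and 9.42, 9.59 and 9.80 in tolerant cells, intermediate on every array. Cxcl2 had the same order with 5.31, 5.70 and 5.72 in tolerant cells against 3.52 at most in unstimulated ones. Il24, a cytokine gene of the IL-10 family, read 3.50, 4.34 and 3.63, then 3.48, 4.16 and 4.23 at 6 h and 7.95, 8.78 and 8.38 in tolerant cells, with no rise at 6 h. Cxcl5, chosen after its values were seen, was the reverse, 12.01, 12.01 and 11.82 at 6 h against 5.10, 5.81 and 6.51 in tolerant cells, which overlapped the unstimulated 6.16, 5.84 and 5.60 (adjusted p = 0.912). Ppbp, a further chemokine gene chosen after its values were seen, fell 2.27-fold below the unstimulated level.

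Binding letters of NF-kappa-B, the factor that induces these chemokines after LPS, stood on either strand in the promoters of 55.6% of 9 chemokine and cytokine genes and 47.1% of 17 NF-kappa-B module genes, against 9.81% of all tested promoters, 11.6% of those of higher genes and 8.29% of those of lower ones. Shown are the stretches around them, in capitals, for chemokine genes above the unstimulated level in tolerant cells, 5′ to 3′ on the gene's strand, from chr5:90903772-90903842 (Cxcl2, plus strand), chr5:90891144-90891214 (Cxcl1, plus strand), chr5:92348953-92349078 (Cxcl10, minus strand).
Cxcl2: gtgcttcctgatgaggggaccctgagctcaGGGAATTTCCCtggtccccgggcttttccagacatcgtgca
Cxcl1: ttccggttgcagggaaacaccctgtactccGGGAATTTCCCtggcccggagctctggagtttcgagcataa
Cxcl10: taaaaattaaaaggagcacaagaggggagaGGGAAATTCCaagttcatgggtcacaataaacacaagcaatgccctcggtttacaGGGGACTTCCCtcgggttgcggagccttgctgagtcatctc
Overlapping matches start at positions -97 and -96 in Cxcl2 and -71 and -70 in Cxcl1, and Cxcl10 has matches at -159, -104 and -103. Cxcl10, which attracts T cells, read 3.79, 3.78 and 3.56 in unstimulated, 4.16, 4.18 and 4.16 at 6 h and 5.01, 5.59 and 5.62 in tolerant cells and was at least 2.65-fold higher. It was chosen after its values were seen.

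Few genes of the receptor side of the pathway were called, 9.09% higher and 4.55% lower beside 14.0% and 12.2% of all tested genes. Of 22 measured Toll-like receptor pathway genes 2 rose and 1 fell (3 and 2 with the block), with a median of 0.01, and 5 rose without 6 h replicate 1. Tlr4 read 5.56, 5.23 and 5.71 in unstimulated, 6.76, 7.12 and 6.22 at 6 h and 7.26, 7.83 and 7.81 in tolerant cells, with rises of 1.55 to 2.26 log2 over its 3 probe sets. Myd88, the adaptor gene, read 6.89, 6.13 and 6.11 and then 5.46, 4.68 and 5.29. Tab3, an activator of the TAK1 kinase, rose 2.81-fold, and Lbp, the LPS-binding protein gene, differed by -0.82 log2 and passed only with the block. The NF-kappa-B module had 6 rises and 1 fall among its 20 measured genes, and 12 and 2 with the block, and no fall without unstimulated replicate 1 or 2 or tolerant replicate 2 or 3. Tnfaip2, a TNF-induced gene, read 8.86, 9.96 and 9.73 and then 11.89, 12.45 and 12.47, a rise of 6.74-fold, and the inhibitor-of-apoptosis genes Birc3 and Birc2 rose by 1.93 and 1.75 log2. Of 28 measured interferon response genes 7 rose and 3 fell (13 and 3 with the block), 25% and 10.7% beside 14.0% and 12.2% of all tested genes. Isg20, an exonuclease gene, rose 2.7-fold from 9.45, 9.45 and 9.38 to 11.07, 10.82 and 10.68, Ifngr1, the interferon-gamma receptor gene, 2.58-fold, Jak2, its kinase, 2.18-fold, and Rsad2, the viperin gene, 2.31-fold.

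Called genes of the BCL2 family and caspases were about as frequent as among all tested genes, 18.5% higher and 14.8% lower beside 14.0% and 12.2%. Of 27 measured 5 rose and 4 fell (6 and 9 with the block), with 3 rises and 2 falls without tolerant replicate 2, and 2 falls without unstimulated replicate 1 or 2. Pmaip1, the gene of the BH3-only protein NOXA, read 6.77, 6.59 and 6.57 in unstimulated, 8.76, 8.65 and 7.52 at 6 h and 8.93, 8.92 and 8.91 in tolerant cells. Casp4, a caspase gene that senses intracellular LPS, read 3.15, 3.59 and 3.02 and then 5.14, 6.21 and 5.97, while Casp6, of an executioner caspase, fell 2.4-fold. Cflar, an inhibitor of caspase 8, rose 2.29-fold, but its 4 probe sets ranged from -0.01 to 1.19 log2. Of 25 measured p53-responsive genes 9 rose and 1 fell (12 and 5 with the block), with 2 falls without 6 h replicate 1 or tolerant replicate 3. Gadd45b read 7.59, 7.42 and 7.51 and then 10.25, 9.25 and 9.32, and Plk3, a polo-like kinase gene, was 2.99-fold higher with a call lost without unstimulated replicate 2 or 3 or 6 h replicate 2 or 3 or tolerant replicate 1 or 2 (adjusted p up to 0.122). Cdkn1a, the p21 gene that is a hallmark p53 target, was chosen after its value was seen and differed by -0.42 log2 (adjusted p = 0.464, or 0.0381 with the block).

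The list with the largest share of falls was that of the primary cilium, the sensory organelle that cells build on their centriole outside mitosis. Of 31 measured genes 16 fell and none rose, against 12.2% of all tested genes lower. With the block 20 fell and 2 rose, against 25.9% of all tested genes lower. Without tolerant replicate 2 the falls numbered 8, and 17 in the highest of the other settings with 1 array left out. The median log2 change was -0.62. Tolerant arrays lay below all unstimulated arrays for 19 of the 31, where 24.5% of all tested genes did.

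The falls reached both transport systems of the cilium. Kif12, a kinesin gene of ciliated epithelia, read 8.78, 7.62 and 7.80 in unstimulated, 8.62, 7.60 and 7.60 at 6 h and 5.97, 4.28 and 5.0 in tolerant cells. Ttc8, a subunit gene of the BBSome, the complex that moves membrane proteins in the cilium, read 8.29, 7.61 and 7.83, then 8.36, 7.91 and 8.03, and finally 5.66, 5.51 and 5.58. Ift122, a gene of the retrograde intraflagellar transport train, read 8.49, 7.96 and 7.99 and then 5.64, 5.75 and 6.41, and its other probe set differed by -1.40 log2. Ttc30b, of the anterograde train, went from 6.37, 5.73 and 5.64 to arrays below log2 4, at least 3.77-fold lower. None of these 4 genes had 6 h arrays overlapping the tolerant ones. Ropn1l, a gene of motile flagella outside the list, fell 5.18-fold, and its other probe set was lower too.

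Carriers of amino acids and sugars fell in 9 of 23 measured genes and rose in 3 (10 and 6 with the block), with a median of -0.33. The largest falls within the list were of amino acid carriers. Slc7a7, the basolateral cationic amino acid exchanger gene, read 8.68, 8.17 and 7.77 in unstimulated, 7.63, 7.44 and 7.57 at 6 h and 6.39, 6.00 and 6.01 in tolerant cells, a fall of 4.21-fold. Slc16a10, an aromatic amino acid carrier gene, fell 4.11-fold, from 6.88, 6.32 and 6.03 to 4.18, 4.02 and 4.92. Slc7a5, which carries large neutral amino acids and was chosen after its value was seen, fell 3.45-fold. The rises were Slc5a10, measured only through its tolerant arrays, and the monocarboxylate carrier genes Slc16a4 and Slc16a1, the last by 2.25-fold and chosen after its value was seen. Slc16a4 read 3.74, 3.02 and 4.05 and then 5.10, 5.75 and 5.95. Of 28 measured ion, metal and calcium-binding genes 8 rose and 2 fell (9 and 9 with the block), with 1 fall without unstimulated replicate 1 or tolerant replicate 2 or 3, 2 of the rises, S100g and Kcnk1, being measured only through the tolerant arrays. Kcnk1, a potassium channel gene, was at least 2.03-fold higher, with tolerant arrays at 5.02, 5.02 and 5.03, and Slc30a4, a zinc carrier gene, rose 2.85-fold.

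Lipid genes were lower in part. Of 34 measured genes of sterol and fatty acid synthesis 8 fell and 2 rose (15 and 3 with the block), with a median of -0.39, but single arrays weighed on the falls, which numbered 4, 2 and 5 without unstimulated replicate 1, 2 or 3 and 3 and 2 without tolerant replicate 2 or 3. Mvk, the mevalonate kinase gene, read 6.94, 6.94 and 6.45 and then 5.33, 5.83 and 5.67, and its other probe set differed by -2.04 log2. Fads2, a desaturase gene, was 1.99-fold lower with a call lost without unstimulated replicate 1 or 2 or tolerant replicate 2 or 3 (adjusted p up to 0.0985). Scap, a sterol sensor gene, was 2.78-fold lower with a call lost without unstimulated replicate 1, 2 or 3 or 6 h replicate 2 or 3 or tolerant replicate 2 or 3 (adjusted p up to 0.156). Of 23 measured genes of fatty acid oxidation and PPAR targets 5 fell and 2 rose (9 and 3 with the block), and 3 fell without tolerant replicate 2. Cpt1a, the gate of mitochondrial fatty acid import, read 10.65, 10.64 and 10.63 in unstimulated and 9.33, 9.40 and 9.35 in tolerant cells. Acot1, a thioesterase gene, fell 1.96-fold. Vnn1, a PPAR target that encodes the pantetheinase vanin, was at least 3.5-fold higher and measured only through its tolerant arrays.

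Genes of protein folding in the endoplasmic reticulum fell in 8 of 30 measured and rose in 4, and in 15 and 7 with the block, with a median of -0.46; the rises numbered 2 without unstimulated replicate 2 or tolerant replicate 2 or 3. Manf, a secreted stress-induced folding factor gene, read 12.02, 12.48 and 12.28 and then 10.85, 11.20 and 11.17. Sdf2l1, a chaperone cofactor gene, fell 2.55-fold with 1 tolerant array below log2 4, and Chac1, which degrades glutathione, 2.74-fold. Ddit3, the CHOP gene, was opposite in direction, 7.72, 7.63 and 7.86 and then 10.19, 9.84 and 9.88, but its other probe set differed by -0.09 log2. Of 16 measured heat-shock genes 3 rose and 1 fell (3 and 4 with the block), and none fell without unstimulated replicate 2 or tolerant replicate 2 or 3. The shares were 18.8% higher and 6.25% lower. Of all tested genes 14.0% were higher and 12.2% lower, or 22.7% and 25.9% with the block. Hspa4l rose 4.89-fold, from 7.52, 7.59 and 7.71 to 9.82, 9.93 and 9.95, and by 2.03 to 2.80 log2 over its 5 probe sets. Hspa4 rose 1.9-fold, whereas its probe sets ranged from -0.67 to 0.92 log2, and Hsp90aa1 was 1.91-fold higher with a call lost without unstimulated replicate 1 or 2 or tolerant replicate 2 or 3 (adjusted p up to 0.0771).

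Genes of oxidative-stress defence fell where they were called, and those of iron handling and detoxification moved in both directions. Of 25 measured NRF2 and glutathione genes 5 fell and none rose, 11 and 2 with the block, and 3 fell when any one unstimulated or tolerant array other than unstimulated replicate 3 was left out. Hmox1, which degrades heme, read 7.56, 7.41 and 6.33 in unstimulated, 7.92, 7.22 and 6.68 at 6 h and 5.39, 4.76 and 4.28 in tolerant cells. Mt1, a metallothionein gene, read 13.92, 13.78 and 13.71 and then 13.01, 12.71 and 12.66, and Pgd, of the pentose phosphate pathway, fell 1.84-fold. Of 12 measured iron genes 3 fell and 3 rose (5 and 3 with the block), with 1 rise without unstimulated replicate 2 or tolerant replicate 2 or 3 and 5 falls without 6 h replicate 1. Each direction held 25% of the iron list, beside 12.2% lower and 14.0% higher of all tested genes. Hfe, the hemochromatosis gene, read 7.55, 6.72 and 6.78, then 5.90, 5.69 and 6.18 at 6 h and 5.32, 4.75 and 4.68 in tolerant cells. Tfrc, the transferrin receptor gene, read 7.97, 8.59 and 8.93, then 10.11, 10.12 and 9.44 and finally 6.25, 7.61 and 7.50, the 6 h and tolerant arrays lying on opposite sides of the unstimulated ones, and its call was lost without unstimulated replicate 2 or 3 or tolerant replicate 1 or 3 (adjusted p up to 0.102). Of 37 measured detoxification enzymes 10 fell and 3 rose (14 and 7 with the block), with 3 to 6 falls when unstimulated replicate 2 or 3 or any tolerant array was left out. Cbr2, a carbonyl reductase gene, went from 6.92, 6.97 and 6.93 to 3.22, 4.14 and 3.90. Uox, the urate oxidase gene, was the largest rise of this list, with 5.01, 5.81 and 5.70 and then 9.11, 9.50 and 9.30. Cyp3a13 and Sult1a1 rose by at least 1.44-fold and 1.56-fold and were measured only through their tolerant arrays.

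Calls were few for ribosomal proteins and differed with the block for the other housekeeping complexes. The shares lower and higher were 9.68% and 6.45% for proteasome, 11.4% and 8.57% for lysosome and 8.7% and 4.35% for autophagy genes. Of all tested genes 12.2% were lower and 14.0% higher, or 25.9% and 22.7% with the block. Of 37 measured cytosolic ribosomal protein genes 1 fell and none rose, with a median of -0.03, and the fall, Rpl14, was lost without unstimulated replicate 1 or 2 or tolerant replicate 1, 2 or 3 (adjusted p up to 0.0957). Of 47 measured respiratory chain genes 3 fell and none rose, with a median of -0.28, whereas 17 fell and 1 rose with the block; 1 fell without unstimulated replicate 2 and 6 without 6 h replicate 1. Atp5g1, an ATP synthase gene, was 1.84-fold lower, from 11.68, 12.11 and 12.03 to 10.83, 11.17 and 11.19, a call lost without unstimulated replicate 2 (adjusted p up to 0.0654). Proteasome genes fell in 3 and rose in 2 of 31 measured (8 and 2 with the block), with 5 falls without 6 h replicate 1 and 1 rise without unstimulated replicate 2 or tolerant replicate 2. Among its ATPase subunits Psmc5 fell 2.06-fold and Psmc3 1.78-fold while Psmc6 was 2.43-fold higher, a call lost without unstimulated replicate 2 or tolerant replicate 2 (adjusted p up to 0.0667). Lysosome genes fell in 4 and rose in 3 of 35 (12 and 4 with the block), with 2 falls without tolerant replicate 2 or 3. Beside Cd68 the melanocyte and lysosome regulator Mitf rose 2.85-fold, and the mannosidase gene Man2b1 and the proton pump gene Atp6v0d1 fell 2.63-fold and 2.44-fold. Of 23 measured autophagy genes 2 fell and 1 rose, and 9 and 2 with the block. The falls numbered 1 without unstimulated replicate 1 or 2 or tolerant replicate 2 or 3 and 5 without 6 h replicate 1, and the rise was lost in every setting with 1 array left out other than unstimulated replicate 1 or 6 h replicate 1. Ulk1, the initiating kinase gene, fell 2.26-fold.

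**Figure D4:**
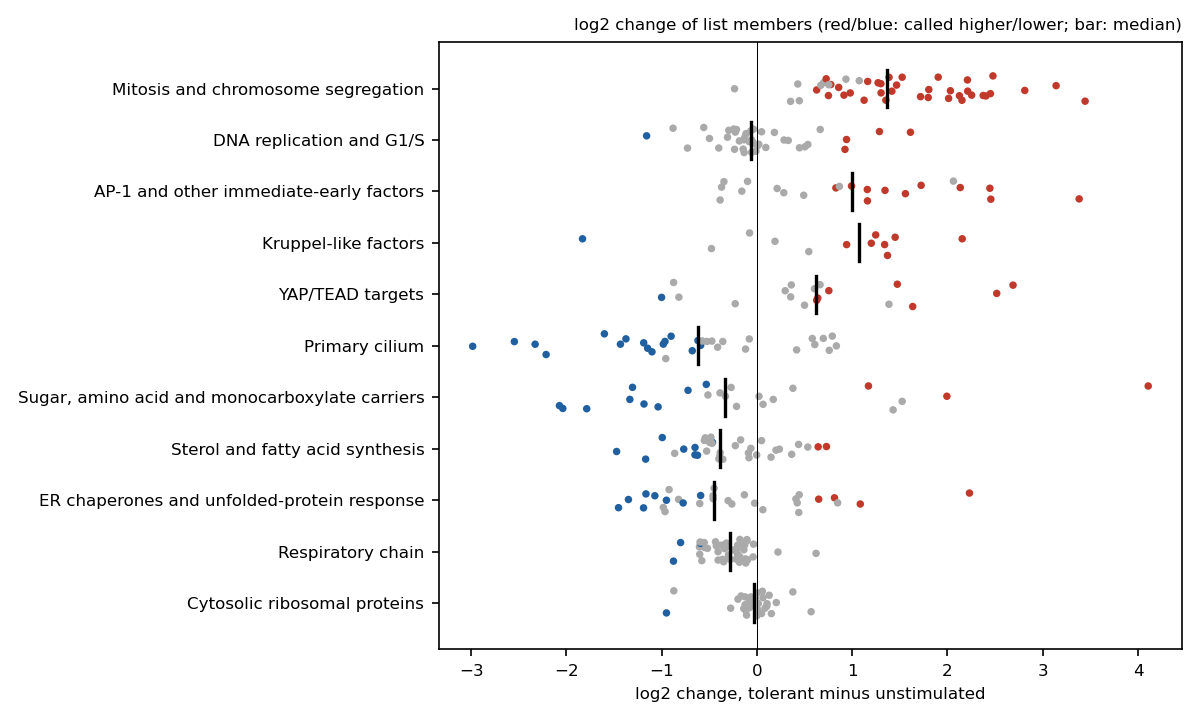
Log2 change, tolerant minus unstimulated, of each measured member of 11 gene lists; red and blue points are genes called higher and lower, grey points are others, and the bar is the median of the list. The mitosis members lie almost wholly to the right of 0 with a median of 1.37, the replication members around 0, and the cilium members mostly to the left with a median of -0.62.

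Metabolic, clock and nuclear lists completed the picture. Of 27 measured genes of glycolysis and the hypoxia response 7 rose and 1 fell (9 and 5 with the block), 4 rising without unstimulated replicate 2, none falling without any one unstimulated or tolerant array, and 1, Pfkfb4, being measured only through its tolerant arrays. Hk2, a hexokinase gene, read 8.55, 9.02 and 8.69 and then 10.78, 10.58 and 10.44. Ankrd37 and Egln3, targets of hypoxia-inducible factor, were 3.18-fold and 2.39-fold higher, and Slc2a1, the GLUT1 gene, differed by 2.88-fold (adjusted p = 0.0682, or 0.00343 with the block). Ankrd37 lost its call without unstimulated replicate 1 or tolerant replicate 2 or 3 (adjusted p up to 0.0694) and Egln3 without unstimulated replicate 2 (adjusted p up to 0.0607).

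Of 13 measured genes of the circadian clock 5 rose and none fell, the same with the block, and 1 of the 5, Nr1d1, was measured only through its tolerant arrays. Clock read 5.19, 5.36 and 5.91 in unstimulated, 6.82, 7.43 and 5.85 at 6 h and 7.61, 7.58 and 7.67 in tolerant cells, although its 3 probe sets rose by 0.71 to 2.13 log2. Nr1d2, a clock repressor gene, read 8.12, 7.77 and 8.64 and then 10.24, 10.22 and 10.24. Rora, its activating counterpart, rose 3.91-fold and Bhlhe40 3.54-fold. The labels give no time of day of harvest.

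Of 26 measured splicing and nuclear speckle genes 4 rose and 4 fell, 15.4% and 15.4%. Of 40 chromatin modifiers 6 rose and 3 fell, 15% and 7.5%, beside 14.0% and 12.2% of all tested genes. With the block the counts were 7 and 6, and 10 and 6, beside 22.7% and 25.9% of all tested genes. The rises fell to 2 without tolerant replicate 2 or 3 in the splicing list. In the chromatin list they ranged from 0 (without tolerant replicate 2) to 3 without an unstimulated array or tolerant replicate 3. Clk1, a splicing kinase gene, read 8.65, 8.80 and 9.58 and then 10.38, 10.69 and 10.78. The speckle RNA Neat1 read 9.65, 9.82 and 10.18 in unstimulated, 12.20, 11.61 and 11.11 at 6 h and 7.94, 8.65 and 8.69 in tolerant cells, so that it lay above the unstimulated level at 6 h and below it later. Of 6 measured prostaglandin genes Ptger4, a receptor gene, rose 3.78-fold from 6.10, 6.54 and 6.57 to 7.99, 8.65 and 8.32, and Ptgds, a prostaglandin D synthase gene, fell 2.38-fold.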

How the data were processed

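For each of 9 arrays the authors deposited 1 intensity per probe set, 45101 in all, on a linear scale. Per the submitters' processing notes they were made with GCRMA, which models background on probe sequence and normalizes between arrays; the sources used here give no version. Low values therefore crowd near a floor. Arrays have no depth, and precision is limited by their number.

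The log2 of each intensity was taken, with no pseudocount added. For a gene with several probe sets the one highest on average over the 9 arrays was taken, from 34945 probe sets with 1 gene symbol in the platform annotation (932 had several), and a gene had to reach log2 4 on 3 arrays. The fit was limma 3.58.1 in R 4.3.3, with a mean per condition over 9 arrays, 6 residual degrees of freedom, eBayes without trend, two-sided tests and Benjamini-Hochberg adjustment over 9431 genes at 0.05. The fold is 2 to the power of the log2 difference. Where every array of a group was under log2 4, a bound replaces the fold. The steps were tested on simulated data.

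The members, gene lists and tests were chosen with earlier results of these data known. The lists hold 1505 genes, of which 119 had no probe set, 396 were below the minimum and 990 were measured; lists are described by counts and medians, without a test. Genes were named as the 15 largest rises and falls among separated calls in the measurable range, the 8 largest bounds each way, up to 4 members per list by size of change, and cell type markers; clone-like symbols were left out.

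Same-numbered unstimulated and tolerant arrays deviated together (correlation of deviations across genes 0.844, 0.569 and 0.651), which met the rule for pairing, so counts are also given from a fit that blocks on the replicate number (4 residual degrees of freedom). Replicates 2 and 3 correlated as much across numbers (0.62 and 0.502), whereas those of replicate 1 with the others were -0.743 to -0.614. Replicate 1 alone was set apart by its number. What a number shares is not stated in the labels.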

Additional observations from a re-analysis of the deposited data

Results flagged for a closer look

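Probe sets without a single gene symbol in the platform annotation took no part in the comparison of genes. Of 10092 such probe sets 1807 passed the level minimum, and by the same limma test 230 of them rose and 119 fell in tolerant cells. The largest rise was 4.76 and the largest fall -2.26 on the log2 scale.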

How the results depend on the processing

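No gene called higher or lower changed its direction among the calls of any alternative run. With the replicate number as a block 2142 genes were higher and 2444 lower. With the block on the 6 arrays alone the counts were 2578 and 3011, with a block of number 1 against the others 2223 and 2586, and with array weights 2589 and 2832. Without number 1 in any condition there were 1749 rises and 1859 falls. With a 1.5-fold threshold within the test 306 were higher and 171 lower, 477 in all, in place of 1394 changed by at least 2-fold. With 1 array left out, 752 to 1474 genes were higher, 648 to 1434 lower, and 1034 to 1467 were called by at least 2-fold. Filters, normalization, floor, eBayes settings and the mean of probe sets kept each of these counts within 1.5 times. Of 176 named genes with a call, 145 kept it in every setting with 1 array left out and 31 lost it in at least 1. Hspa4 differed by -0.0306 log2 under the mean of its probe sets. The causes of these shifts were not tested. Levels below log2 4 carry no order, which limits all genes at the low end.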

Other observations

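The share of changed genes differed with gene length and position. Among genes spanning up to 10.45 kb in the RefSeq annotation 8.58% were higher and 13.8% lower in tolerant cells, with a median log2 change of -0.21. Among genes spanning 53.95 kb or more 19.8% were higher and 10.9% lower, with a median of 0.12. The same order of these medians held in each of the 3 same-numbered pairs of arrays. Chromosome 1 had 21.0% of its 519 tested genes higher and 10.4% lower, and X had 20.6% and 7.87% of 267. Chromosome 7 had 9.02% higher and 11.8% lower of 676, and chromosome 19 had 11.3% and 13.8% of 354. By level, 9.83% of genes at a mean of log2 10 or more were higher and 8.96% lower, against 13.7% and 13.5% below log2 6.

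Genes with promoters with a GC content of 68% or more were higher in 16.8% and lower in 9.65%, and those with up to 55.67% in 12.6% and 15.4%. These values describe the called genes and were not tested.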
